A study of Mus musculus with 8 samples.

Results

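The p53 pathway genes described here are Trp53, its regulators Mdm2 and Mdm4, and the targets Ccng1, Btg2, Fas, Phlda3, Zmat3, Trp53inp1 and Perp. They were chosen by name, 10 genes in all, and 9 of them were among the 19937 genes that had a probe set with 1 gene symbol. Trp53 itself was not analysed here. Each of the 9 measured genes had 1 probe set. Total RNA was hybridised to 8 Affymetrix mouse gene arrays, 1 per sample, in 2 groups of 4. The c-MYC liver tumour group came from mice with liver-specific overexpression of human c-MYC, driven by the CEBPB-LAP promoter with doxycycline control, and was collected at the humane endpoint. The Control Liver group was normal liver of matched mice. The transgene is also written on the control samples' labels, and which alleles or doxycycline the controls received, and the mice's strain, sex and age, are not given in the sources used here. The LAP promoter acts mainly in hepatocytes, whereas the arrays measured whole tissue, so fewer cells of a type and less RNA per cell cannot be told apart. The question was how expression in MYC-driven tumours differs from that in normal liver.

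p53 is a transcription factor that is kept scarce in unstressed cells, because MDM2 marks it for degradation and MDM4 masks its activating domain. DNA damage kinases, and proteins that bind MDM2 when growth or ribosome assembly is disturbed, release p53, which then switches on genes of cell cycle arrest, DNA repair and cell death and also Mdm2 itself. MYC is known to engage the pathway through ARF, a product of Cdkn2a, and loss of p53 function is common in liver cancer.

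Values are the deposited log2 values, in which a step of 1 is a 2-fold difference in signal. Changes are tumours minus controls with the SE from limma, and a gene was called where its Benjamini-Hochberg adjusted p-value over the 19937 genes was under 0.05. A level was regarded as background at or below 6.2, the 95th percentile of the mean values of 1015 olfactory receptor genes. Array medians lay between 6.33 and 6.44, and arrays correlated across genes at 0.970 to 0.982 among controls, 0.979 to 0.989 among tumours and 0.865 to 0.897 between the groups. All 9 measured hepatocyte markers were above background in both groups, and all 9 were lower in tumours. Their summed linear signal was 43400 to 48600 in controls and 26100 to 35700 in tumours. The 5 measured proliferation genes were all higher, with a summed signal of 1870 to 2350 in controls and 8780 to 11700 in tumours. Pcna had the highest mean of these 5 in both groups (10.86 and 12.61 on the log2 scale). It is also counted below among the p53 targets of DNA repair. Over all genes 16.2% were called higher and 12.7% lower.

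Of the 9 measured p53 pathway genes, 4 rose and 1 fell in the tumours. Btg2, Ccng1, Mdm4 and Zmat3 rose by 0.37 to 0.99 on the log2 scale, the death receptor gene Fas fell by 1.26, and Mdm2, Phlda3, Perp and Trp53inp1 did not pass the threshold. The called share was 55.6%, against 28.9% of all genes in the same comparison. In the direction of a rise 16.2% of all genes were called, and in the direction of a fall 12.7%. For 5 of the 9 genes the groups did not overlap, as for 30.2% of all genes. The median change of the 9 was 0.22, with a range from -1.26 to 0.99, beside a median of -0.04 over all genes.

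**Figure D1:**
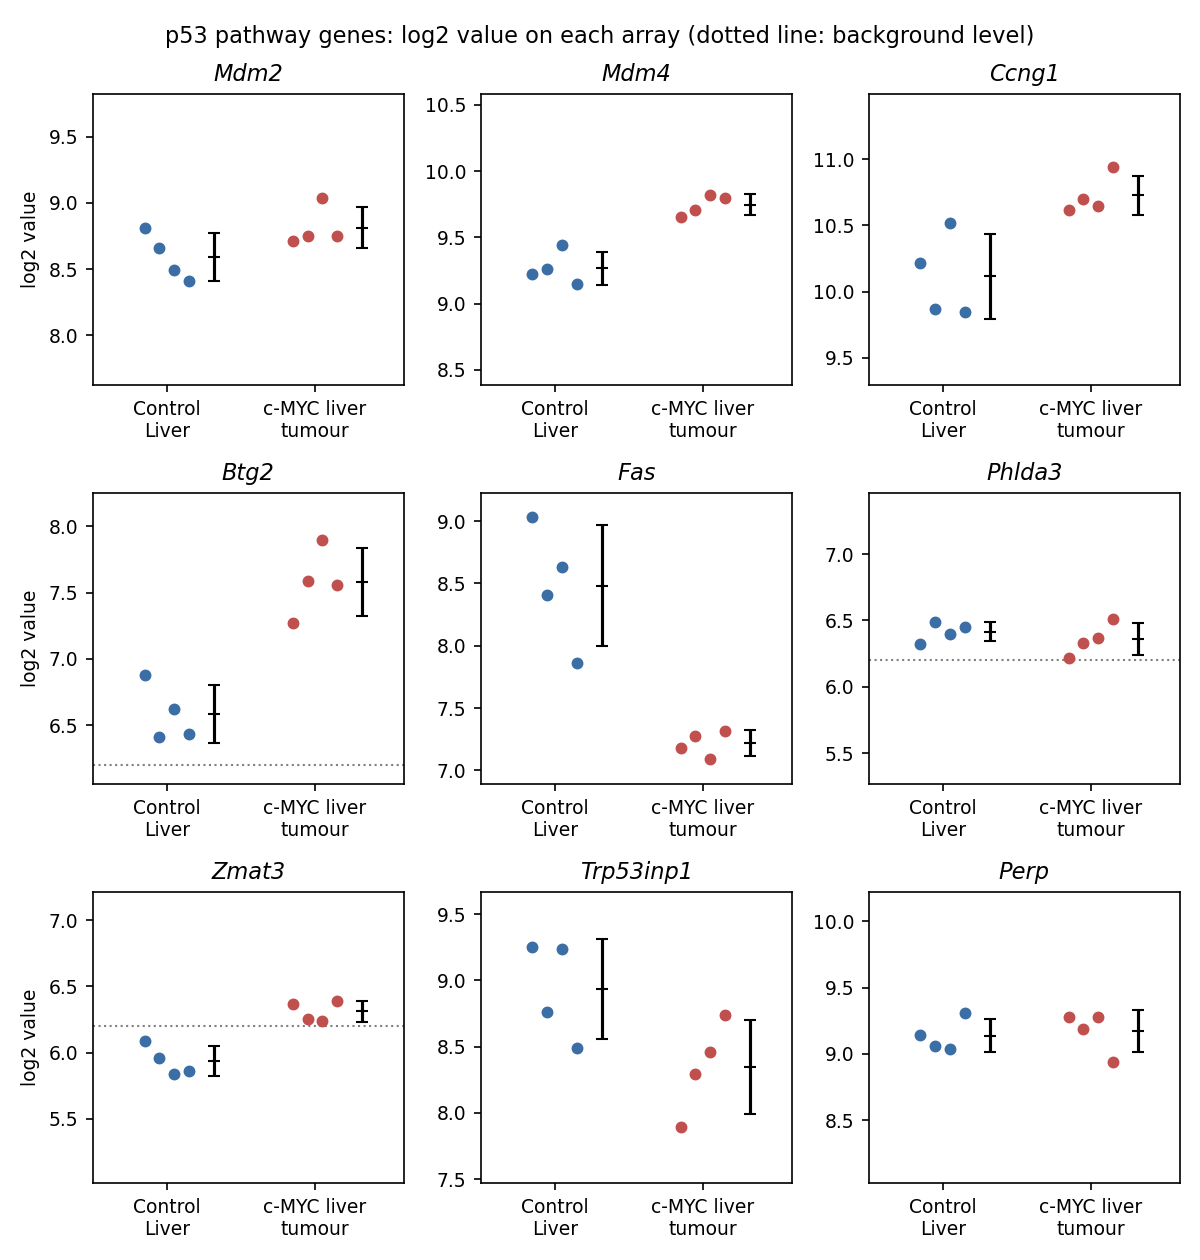
Log2 value (vertical axes, each with its own range) of the 9 measured genes on each of the 8 arrays, controls in blue and tumours in red, with black bars for the mean ± SD of 4 arrays and a dotted line at the background level of 6.2. The tumour points lie wholly above the control points for Mdm4, Ccng1, Btg2 and Zmat3 and wholly below them for Fas.

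MDM2 and MDM4 are related proteins that hold p53 in check together. Mdm2 read 8.81, 8.66, 8.49 and 8.41 in control livers 1 to 4 and 8.71, 8.75, 9.04 and 8.75 in tumours 1 to 4. Tumour 3 was highest and control liver 4 lowest, and control liver 1 lay inside the tumour range, so the groups overlapped. The change was 0.22 (SE 0.12, 95% confidence interval from -0.05 to 0.48, adjusted p = 0.22 in limma), which leaves room for a rise of up to 0.48 or none. Without tumour 3, and likewise with quantile normalisation, the change was 0.14. Mdm4 read 9.22, 9.26, 9.44 and 9.15 in the controls and 9.65, 9.71, 9.82 and 9.8 in the tumours. All 4 tumours were above all 4 controls, and Mdm4 rose 1.39-fold, from 9.27 ± 0.12 to 9.74 ± 0.08 (SD over 4 arrays each; limma gave a log2 change of 0.48 with SE 0.1, adjusted p = 0.00344). The changes of Mdm2 and Mdm4 differed by -0.26 (SE 0.13), and an exact two-sided permutation test over the 70 splits of 4 against 4 arrays gave p = 0.0857, also 0.0857 after adjustment over the 3 pairs of genes compared. A difference between the 2 regulators was therefore not shown.

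The promoter windows of Ccng1 and Mdm2 are printed because both genes are textbook p53 targets (their changes were not compared by a test), and that of Fas because Fas is the member that fell. They are RefSeq sequences on GRCm38.p6 from 250 bases before to 50 after the gene's start, 5′ to 3′ on the gene's strand: Ccng1 at chr11:40755237-40755536 (minus strand), Mdm2 at chr10:117710709-117711008 (minus strand) and Fas at chr19:34290409-34290708 (plus strand). Capitals mark the 10-base p53 consensus element (the p53 decamer, its own reverse complement) and CACGTG, the canonical E-box of MYC and MAX, which also reads the same on both strands.
Ccng1: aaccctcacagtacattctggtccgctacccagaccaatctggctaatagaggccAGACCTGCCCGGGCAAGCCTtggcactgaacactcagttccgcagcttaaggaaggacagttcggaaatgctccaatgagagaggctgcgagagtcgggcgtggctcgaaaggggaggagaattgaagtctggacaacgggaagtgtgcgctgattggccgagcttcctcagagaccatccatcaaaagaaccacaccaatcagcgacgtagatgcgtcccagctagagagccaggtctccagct
Mdm2: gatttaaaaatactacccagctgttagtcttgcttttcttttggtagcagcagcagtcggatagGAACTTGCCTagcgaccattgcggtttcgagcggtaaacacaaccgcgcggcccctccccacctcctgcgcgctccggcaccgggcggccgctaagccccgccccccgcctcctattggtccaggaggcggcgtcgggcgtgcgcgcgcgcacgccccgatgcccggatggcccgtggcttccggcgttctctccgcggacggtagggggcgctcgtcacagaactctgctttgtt
Fas: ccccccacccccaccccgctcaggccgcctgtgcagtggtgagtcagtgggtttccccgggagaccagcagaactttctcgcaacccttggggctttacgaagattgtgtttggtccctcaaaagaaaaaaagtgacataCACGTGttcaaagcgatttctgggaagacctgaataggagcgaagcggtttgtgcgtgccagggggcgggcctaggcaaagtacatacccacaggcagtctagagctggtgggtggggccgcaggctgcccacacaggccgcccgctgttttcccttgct
Windows were found for 7 of the 10 genes. The capitals in Ccng1 are 2 adjoining decamers starting 195 bases before the start, AGACCTGCCC with 1 mismatch and GGGCAAGCCT with none. Such a pair may have 1 mismatch in each decamer and up to 13 bases between them. It was in 2.71% of the 32851 promoter windows searched and in no other window of these genes. The search left out the windows of 1 chromosome. A decamer without mismatch, present in 8.36% of the windows searched, was in those of Ccng1, Mdm2 and Trp53. In Mdm2 it is GAACTTGCCT, 186 bases before the start. The stress-responsive promoter of Mdm2 lies in its first intron, outside this window. CACGTG was in 7.15% of the windows searched and in those of Trp53 and Fas, in Fas 110 bases before the start. The windows of Btg2, Phlda3 and Mdm4 held neither motif. A match describes the letters and is not evidence of binding.

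Among the targets that act on the cell cycle, Ccng1 and Btg2 both rose. Ccng1, which encodes cyclin G1, a p53-induced partner of protein phosphatase 2A that feeds back on MDM2, read 10.22, 9.87, 10.52 and 9.85 in the controls and 10.62, 10.7, 10.65 and 10.94 in the tumours. Control liver 3 came close to the lowest tumour, but the groups did not overlap. It rose 1.53-fold, from 10.12 ± 0.32 to 10.73 ± 0.14 (SD over 4 arrays each; limma gave a log2 change of 0.61 with SE 0.15, adjusted p = 0.0127). Btg2, an antiproliferative gene whose product recruits the mRNA deadenylase complex, read 6.88, 6.41, 6.62 and 6.43 in the controls and 7.27, 7.59, 7.9 and 7.56 in the tumours. Every tumour was above every control, and tumour 3 was highest. Btg2 rose 1.99-fold, from 6.59 ± 0.22 to 7.58 ± 0.26 (SD over 4 arrays each; limma gave a log2 change of 0.99 with SE 0.15, adjusted p = 5.8e-04), and 10.5% of all genes changed by more. The changes of Btg2 and Ccng1 differed by 0.38 (SE 0.19), with an exact two-sided permutation p of 0.0857 and the same value adjusted over the 3 pairs.

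Of the 2 death genes, Fas fell and Perp did not pass the threshold. Fas, the death receptor through which T cells and other cells trigger apoptosis of hepatocytes, read 9.03, 8.41, 8.63 and 7.86 in the controls and 7.18, 7.28, 7.09 and 7.32 in the tumours. The controls were spread widely, with control liver 1 highest and control liver 4 lowest, while the 4 tumours lay close together below all of them. The SD was 0.49 among controls, a value exceeded by 3.91% of all genes, and 0.11 among tumours, exceeded by 77.2%. Fas fell by 1.26 on the log2 scale, from 8.48 to 7.22, so that controls were 2.4-fold higher (n = 4 and 4, SE 0.21, adjusted p = 9.0e-04 in limma), and 7.38% of all genes changed by more. Perp, which encodes a membrane protein of desmosomes linked to p53-dependent apoptosis, read 9.14, 9.06, 9.04 and 9.31 in the controls and 9.28, 9.19, 9.28 and 8.94 in the tumours. The groups overlapped throughout, with tumour 4 the lowest array of all, and the change was 0.03 (SE 0.11, 95% confidence interval from -0.21 to 0.28, adjusted p = 0.863 in limma). The changes of Perp and Fas differed by 1.3 (SE 0.31). The within-array differences of Perp and Fas did not overlap between the groups. The exact two-sided permutation p was 0.0286, the smallest that 4 against 4 arrays allow, and 0.0857 after adjustment over the 3 pairs. A single pair at that smallest p adjusts to 0.0857, so it could not pass 0.05 alone, whatever its size. The adjusted test therefore cannot decide whether the changes of Perp and Fas differ.

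Phlda3, whose product restrains AKT by competing for membrane lipids, lay just above background. It read 6.32, 6.49, 6.4 and 6.45 in the controls and 6.22, 6.33, 6.37 and 6.51 in the tumours, with overlapping groups and a change of -0.06 (SE 0.1, 95% confidence interval from -0.27 to 0.15, adjusted p = 0.72 in limma). Zmat3, which encodes an RNA-binding zinc finger protein, read 6.09, 5.96, 5.84 and 5.86 in the controls, at background, and 6.37, 6.25, 6.24 and 6.39 in the tumours, just above it. All 4 tumours were above all 4 controls. Zmat3 rose by 0.37 on the log2 scale, from 5.94 ± 0.12 to 6.31 ± 0.08 (SD over 4 arrays each; limma SE 0.1, adjusted p = 0.0133), and since the control mean is at background the fold is a limit rather than a size. Trp53inp1, a stress-induced gene of p53 phosphorylation and autophagy, read 9.25, 8.76, 9.24 and 8.49 in the controls and 7.89, 8.29, 8.46 and 8.74 in the tumours. Control liver 4 lay below tumour 4, so the groups overlapped, and the SD was wide in both, at 0.38 among controls and 0.36 among tumours, values exceeded by 8.01% and 7.81% of all genes. The change was -0.59 (SE 0.21, unadjusted 95% confidence interval from -1.07 to -0.12) with an adjusted p of 0.0624 in limma. It passed with quantile normalisation (adjusted p = 0.0497 in limma), with array weights (0.0258) and without control liver 4 (0.0233) or tumour 4 (0.033), by -0.67, -0.66, -0.74 and -0.73, so that the members that fell were then 2.

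**Figure D2:**
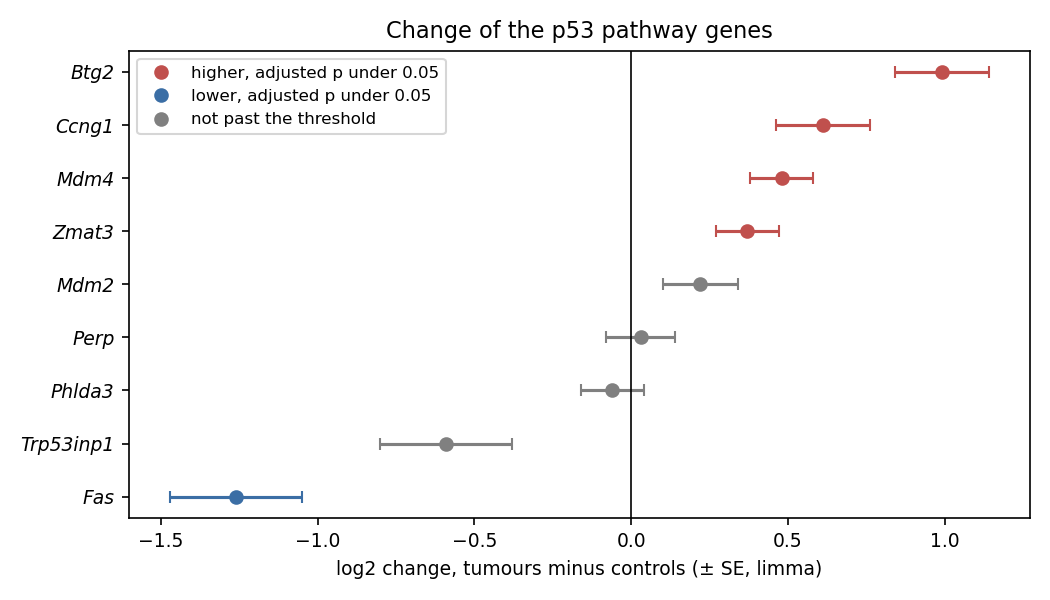
Log2 change (horizontal axis, tumours minus controls, ± SE from limma, 4 arrays per group) of the 9 measured genes in order of size. Red and blue points passed an adjusted p of 0.05 and grey ones did not. Btg2 at 0.99 and Fas at -1.26 mark the ends, and Mdm2 at 0.22 and Perp at 0.03 lie in between.

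Some arrays were at an end of their group's range for several members. This is a description with no test, and how often it holds over all genes was not computed. Control liver 1 was the highest control for 5 of the 9 genes, Mdm2, Btg2, Fas, Zmat3 and Trp53inp1, and control liver 4 was the lowest for 5, Mdm2, Mdm4, Ccng1, Fas and Trp53inp1. Control liver 3 was the highest for 2 and the lowest for 2. Among tumours, tumour 1 was the lowest for 6 genes, tumour 3 the highest for 4 and the lowest for 2, and tumour 4 the highest for 5. Tumour 2 was neither highest nor lowest for any.

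The rest of the pathway was examined in 8 lists by role, from which the 9 members were left out. Of 103 genes listed, 96 were measured, 34 rose and 12 fell, or 47.9% called against 28.9% of all genes. Their median change was 0.25, beside -0.04 over all genes. By list the called share ran from 25.0% among targets of arrest to 72.7% among genes listed as inhibitors of MDM2. In this set the genes acting on p53 include many that also serve DNA replication or ribosome assembly. The proliferation genes given above rose in the same arrays, and their part in these counts was not tested. Pcna belongs to both sets, so the proliferation genes are not wholly separate from the listed genes.

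Among p53's relatives and upstream kinases 4 of 12 rose and 1 fell, a called share of 41.7% beside 28.9% of all genes. The damage kinases Atm and Atr rose 2.36-fold and 2.7-fold, and the checkpoint kinases Chek1 and Chek2, which they activate, rose from background. Atm read 6.82 to 7.34 in controls and 8.2 to 8.41 in tumours (a rise of 1.24, SE 0.12, limma adjusted p = 2.7e-05). Atr read 7.31 to 7.82 and 8.97 to 9.14 (1.43, SE 0.12, adjusted p = 1.1e-05 in limma). Chek1 read 5.19 to 6.2 in controls and 8.78 to 9.01 in tumours (3.18, SE 0.19, adjusted p = 7.2e-07 in limma). Chek2 read 5.26 to 5.59 and 6.67 to 7.59 (1.78, SE 0.17, adjusted p = 2.8e-05 in limma). In all 4 genes the groups were apart, and the control means of Chek1 and Chek2 were at background, so that their fitted changes are limits rather than sizes. The same holds for each gene said to rise from background. Hipk2, a kinase that phosphorylates p53 in the apoptotic response, fell by 0.75, from 8.79 ± 0.36 to 8.04 ± 0.32 (SD over 4 arrays each; limma adjusted p = 0.0166), with overlapping groups. The other relatives Trp63 and Trp73 changed by 0.02 and -0.25 (adjusted p = 0.907 and 0.117 in limma). Trp63 was at background in both groups (5.95 and 5.97). Trp73 was just above it in controls (6.23) and at background in tumours (5.97), so little can be read from either.

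**Figure D3:**
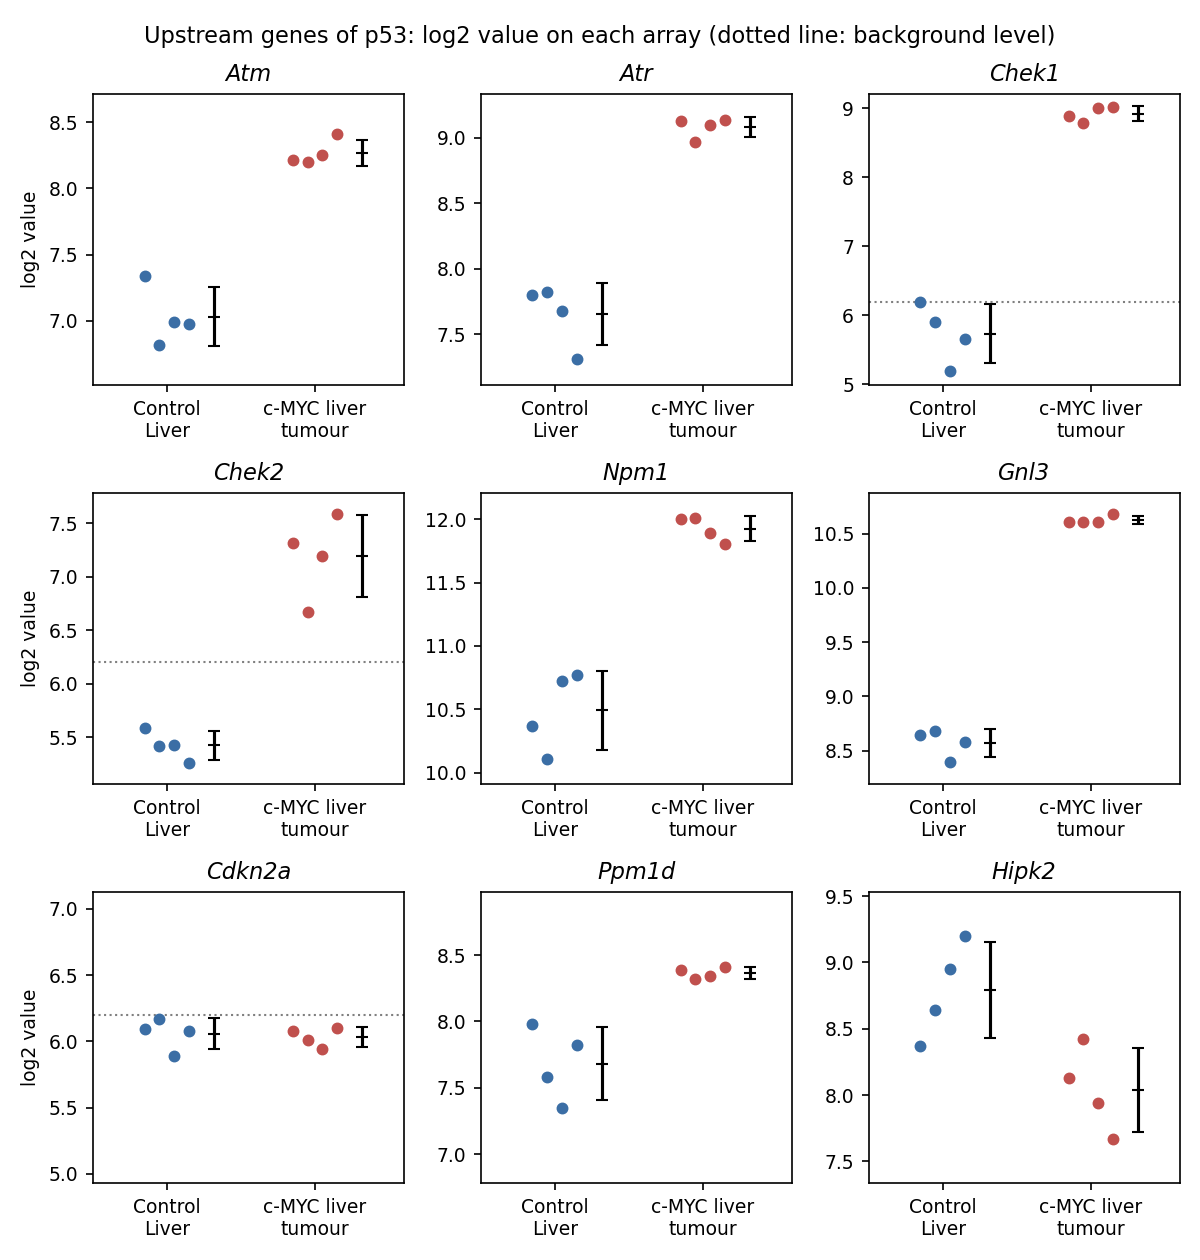
Log2 value (vertical axes, each with its own range) on each array for 9 genes that act on p53 or MDM2, controls in blue and tumours in red, with the mean ± SD of 4 arrays in black and a dotted line at the background level of 6.2. Tumours lie wholly above controls for Atm, Atr, Chek1, Chek2, Npm1, Gnl3 and Ppm1d, the groups overlap for Hipk2, and Cdkn2a stays below the dotted line in both groups.

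Genes listed as ARF and ribosomal or nucleolar inhibitors of MDM2 had the highest called share of the 8 lists, 72.7%. The list gives an assigned role, and how each product, that of Pa2g4 included, acts on MDM2 was not tested. Of 11 measured, 8 rose and none fell in limma, and none fell at an unadjusted p of 0.05 either, where 9 rose. Gnl3, the nucleolar GTPase nucleostemin, rose 4.16-fold, from 8.57 ± 0.13 to 10.63 ± 0.03 (SD over 4 arrays each; limma gave a log2 change of 2.05 with SE 0.09, adjusted p = 1.5e-07). Pa2g4, which encodes the growth regulator EBP1, and Npm1, the nucleolar protein nucleophosmin that holds ARF, rose 2.93-fold and 2.7-fold. The ribosomal protein genes Rpl5, Rpl23, Rps7 and Rps14 rose by 0.56 to 1.22. These 4 have several probe sets each and near-identical copies in the genome, so their sizes are uncertain. Each was also called when a gene's probe sets were averaged, where Rps7 went from 0.83 to 1.39. Cdkn2a, singled out after its values were seen because it encodes ARF, was at background in both groups. It read 6.06 ± 0.12 in controls and 6.03 ± 0.07 in tumours (SD over 4 arrays each, adjusted p = 0.876 in limma). Its 1 probe set was read for the gene as a whole, so the ARF transcript was not measured apart. At background, little can be read from it.

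Among 12 other negative regulators of p53, 5 rose and 1 fell. Aurka, a mitotic kinase that phosphorylates p53, rose 3.09-fold, and Hdac1, a histone deacetylase that also deacetylates p53, rose 2.49-fold. Ppm1d, the phosphatase that dephosphorylates p53 and its kinases and is itself a p53 target, rose 1.6-fold, with the 4 tumours between 8.32 and 8.41 and the controls between 7.35 and 7.98 (a rise of 0.68, SE 0.13, limma adjusted p = 0.00275). Usp7, a deubiquitinase of MDM2 and p53, rose 1.37-fold. Rchy1, the ubiquitin ligase PIRH2 and a p53 target, fell by 0.34 (SE 0.09, adjusted p = 0.0167 in limma). Of 14 cofactors and modifying enzymes 5 rose and 1 fell, a called share of 42.9%. Without tumour 1, 2 or 3, the cofactors that rose were 3 in each case. The arginine methyltransferase gene Prmt5 rose 3.52-fold and Kmt5a, a lysine methyltransferase acting on histone H4 and p53, 1.75-fold, while Kat2b, the acetyltransferase PCAF, fell by 1.47 (SE 0.17, adjusted p = 7.7e-05 in limma), from 8.66 ± 0.23 to 7.18 ± 0.31 (SD over 4 arrays each).

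Other p53 targets moved both ways. Of 8 further targets of arrest 2 rose and none fell in limma, while at an unadjusted p of 0.05 the counts were 3 and 1. The called share of 25.0% was below the 28.9% of all genes. The 2 were Ckap2 and Psrc1, both microtubule-associated proteins of the mitotic spindle, which rose by 2.95 and 0.75 (SE 0.18 and 0.11). The control mean of Ckap2 was at background, so its change is also a limit. Without control liver 3, 1 target of arrest fell. Of 13 further apoptosis genes 6 rose and 2 fell, a called share of 61.5%. Of the risers, Eda2r was at background in both groups (5.19 and 5.75), and its groups overlapped. With 1 array left out, 4 to 6 rose and 2 to 3 fell. Eda2r and Aen then reached adjusted p-values of up to 0.104 and 0.0646 in limma. Siva1, which encodes an adaptor of death receptors, rose 1.9-fold. Its log2 change was 0.93, and 0.73 when its 2 probe sets were averaged. Apaf1, the core of the apoptosome, rose 1.78-fold, from 6.96 ± 0.23 to 7.79 ± 0.05 (SD over 4 arrays each). For Apaf1 limma gave a log2 change of 0.83 with SE 0.12, adjusted p = 4.1e-04. Bid, which links death receptors to mitochondria, rose 1.63-fold, and the TRAIL receptor gene Tnfrsf10b rose by 0.56 from background (5.83 to 6.39). Tnfrsf1a, the TNF receptor, fell by 0.8, from 7.43 ± 0.21 to 6.62 ± 0.08 (SD over 4 arrays each; limma SE 0.12, adjusted p = 4.2e-04), in the same direction as Fas. Bbc3 and Pmaip1, the genes of the p53-induced killers PUMA and NOXA, were singled out after their values were seen and changed by 0.08 and 0.25 (SE 0.1 and 0.16, adjusted p = 0.625 and 0.311 in limma). With 1 array left out Bbc3 ranged from 0.03 to 0.12 and Pmaip1 from 0.09 to 0.35, and neither passed. The control mean of Bbc3 was at background.

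Of 10 targets of DNA repair and nucleotide supply 2 rose and 2 fell. The called share was 40.0%, beside 28.9% of all genes (16.2% higher and 12.7% lower). Polh, a polymerase that copies past ultraviolet lesions, rose by 1.59 from background (SE 0.16), and Pcna, the sliding clamp of replication, rose 3.35-fold. Ddb2, which recognises ultraviolet damage, fell by 0.47 (SE 0.12), and Mgmt, which removes alkyl groups from guanine, by 0.52 (SE 0.11). Of 16 targets of metabolism and redox control 2 rose and 5 fell, a called share of 43.8%. Gpx1, the main glutathione peroxidase of liver, fell by 2.29, from 10.7 ± 0.42 to 8.41 ± 0.49 (SD over 4 arrays each; limma SE 0.26, adjusted p = 7.6e-05). Pank1, a pantothenate kinase of coenzyme A synthesis, fell by 1.23 and Acad11, an acyl-CoA dehydrogenase, by 1.05 (SE 0.13 and 0.22). Hepatocytes express these 3 genes strongly, and the hepatocyte markers given above were lower in the same arrays. Their part in these falls was not tested. Sesn1, a sestrin that restrains mTORC1, rose 1.5-fold (SE 0.17 on the log2 scale, adjusted p = 0.0238 in limma), but not without control liver 2 (limma adjusted p = 0.0702) or control liver 4 (0.0601). The other riser of that list was Cpt1c, at 0.29 (limma adjusted p = 0.0454), which missed the threshold whichever of the 8 arrays was left out (adjusted p from 0.0518 to 0.122 in limma). Among the metabolic targets, 0 to 3 rose with 1 array left out, so other genes of the list passed in some of these fits. Risers were none without control liver 2 or 4 and 1 without control liver 1, tumour 2 or tumour 3.

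**Figure D4:**
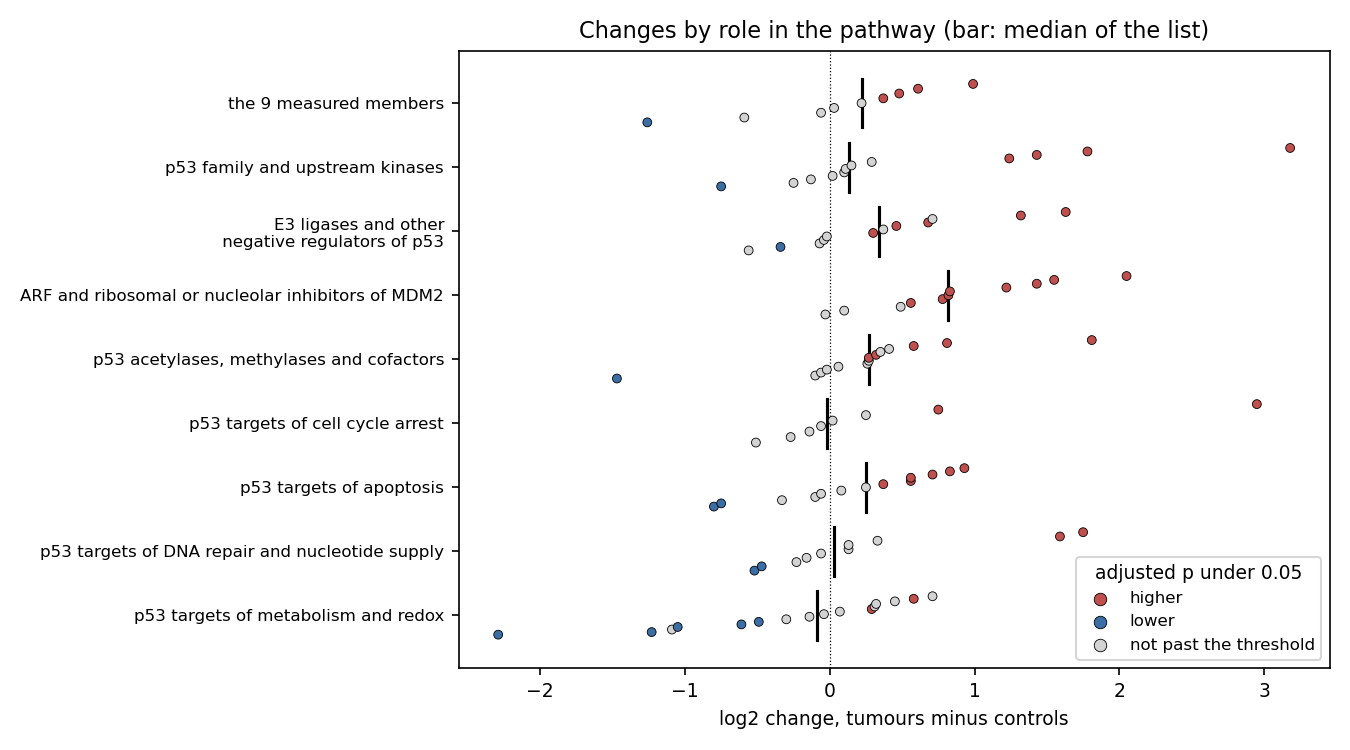
Log2 change (horizontal axis, tumours minus controls) of every measured gene by role in the pathway, 1 row per list, with genes past an adjusted p of 0.05 in red (higher) or blue (lower), the others in grey, and a black bar at the median of each list. The medians run from -0.09 for metabolism and redox targets to 0.82 for genes listed as inhibitors of MDM2.

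Markers of other cells that a piece of liver holds were measured beside these genes. For comparison, 16.2% of all genes were called higher and 12.7% lower. Of 10 endothelial markers 6 were lower and none higher in limma, also at an unadjusted p of 0.05, and their summed signal was 1630 to 2560 in controls and 1010 to 1310 in tumours. Of 9 stellate cell and fibroblast markers 1 was higher and 4 were lower, and of 10 Kupffer cell and macrophage markers 2 were higher and 2 lower. Their sums overlapped between groups, at 2660 to 3730 and 1150 to 2700 for the former and 2340 to 4410 and 1860 to 3070 for the latter. Of 10 T and NK cell markers none was called in either direction, nor at an unadjusted p of 0.05, and Cd3d, Cd3g, Cd4, Cd8b1, Ncr1, Klrb1c and Gzma were at background in both groups, with list sums of 553 to 721 and 585 to 614. None of 4 B cell markers and none of 6 neutrophil markers was called in either direction in limma (0 and 1 lower at an unadjusted p of 0.05), with sums of 207 to 248 and 199 to 233, and of 275 to 848 and 250 to 377. Of these, Ms4a1 and Cd79a, and S100a8, Ly6g, Csf3r, Cxcr2 and Retnlg, were at background in both groups. For 5 bile duct markers 1 was higher and 1 lower, and Krt19, Epcam and Cftr were at background, with sums of 320 to 345 and 302 to 386. Hepatocytes and endothelial cells both express Fas, and the part of their lower markers in its fall was not tested.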

How the data were processed

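The table deposited by the authors holds log2 values of 34760 probe sets on 8 arrays. Per the submitters' processing notes they were made with RMA, a method that removes background, equalises arrays and combines the probes of a set, and with R 3.0.2. Its settings and the genome build are not given in the sources used here. Probe sets were named with the platform annotation. Of these, 21640 had 1 symbol, of which 21553 were matched to RefSeq by gene identifier, and the probe set with the highest mean was kept, leaving 19937 genes. Groups were compared on the deposited log2 values with limma 3.58.1 (lmFit and eBayes, group as the only term) in R 4.3.3, two-sided, with Benjamini-Hochberg adjustment across the 19937 genes and a threshold of 0.05. Tables used Python 3.11.15 and pandas 2.3.3, exact permutation tests scipy 1.17.1, and plots matplotlib 3.10.9. The fit and the permutation test were tested on simulated data.

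The members and lists were chosen with earlier results of these data known. Named were all members and, in each list, the 3 largest changes past the threshold, the largest in the less frequent direction and others past the threshold. A rule naming genes most like Trp53 could not be applied, since Trp53 was not analysed here. Of the 103 listed genes, 3 had a probe set common to several genes and 4 more were not analysed here. Precision is limited by having 4 arrays per group. Nothing says which mouse a sample came from, so the p-values reflect the spread between these samples, which may be technical.

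Alternatives were quantile normalisation, subtraction of array medians, leaving out the dimmest 33.3% of genes, a robust variance with an intensity trend, array weights, a replicate block, averaging a gene's probe sets, a test against a 1.5-fold change and leaving out each array in turn.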

Additional observations from a re-analysis of the deposited data

Results flagged for a closer look

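In 7 of 118 groups of 4 arrays examined, over 59 genes, 1 array lay far from the others by Dixon's criterion, and chance alone flags about 1 in 20 groups. Mdm2 read 9.04 in tumour 3 and 8.71 to 8.75 in the other tumours. Tumour 3 was also apart for Tnfrsf1a, at 6.74 against 6.58 to 6.6, and for Ei24, an apoptosis gene, at 10.36 against 9.64 to 9.69. Gnl3 read 10.68 in tumour 4 and 10.61 in each of the other tumours. Psrc1 read 6.95 in tumour 2 and 7.31 to 7.38 in the others. Ep300, the acetyltransferase p300, was low in control liver 2, at 8.55 against 8.77 to 8.81. Trim24, a ubiquitin ligase of p53 picked out after its values were seen, was high in control liver 3, at 9.88 against 7.19 to 7.63. Its change was -0.56 with all arrays and 0.07 without control liver 3.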

How the results depend on the processing

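The 9 measured members kept their direction and their side of the threshold with median subtraction, without the dimmest 33.3% of genes, with an intensity trend and robust variance, with the replicate block and with averaged probe sets. Quantile normalisation gave Perp -0.04 in place of 0.03, and Perp ranged from 0.0 to 0.11 with 1 array left out. Cdkn2a, at -0.03, was 0.0 with quantile normalisation and ranged from -0.08 to 0.01 with 1 array left out, and Trim24 ranged from -0.83 to 0.07. Trp53inp1 passed with quantile normalisation (-0.67) and array weights (-0.66), which made 2 members lower in each, and it ranged from -0.74 to -0.44 with 1 array left out, where 1 to 2 members were lower. In the test against a 1.5-fold change, which asks for a larger effect, Fas passed (adjusted p = 0.0466 in limma) and 0 members were higher, with Mdm4 (0.48), Ccng1 (0.61), Btg2 (0.99, adjusted p = 0.113 in limma) and Zmat3 (0.37) no longer past the threshold. That test left 2 genes of the list of E3 ligases, deubiquitinases and negative regulators higher and 0 lower. It left 0 upstream kinases lower, 4 listed inhibitors of MDM2 higher and 1 cofactor higher. It also left 1 arrest target higher, 0 apoptosis targets higher and 0 lower, 0 repair targets lower, and 0 metabolic targets higher and 2 lower. Over all 19937 genes it left 963 higher and 756 lower, against 3225 and 2532 in the main fit. Array weights gave 8 cofactors and 4 metabolic targets higher, and over all genes 3563 higher and 2995 lower. With 1 array left out, 3 to 6 cofactors and 0 to 3 metabolic targets were higher, and 0 to 1 arrest targets lower. Over all genes 2763 to 3277 were then higher and 2060 to 2561 lower. The differences between pairs of genes ranged from -0.35 to -0.17 (Mdm2 and Mdm4), 0.25 to 0.46 (Btg2 and Ccng1) and 1.12 to 1.56 (Perp and Fas) with 1 array left out, where 4 against 3 arrays cannot give an exact p under 0.0571.

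Controls and tumours share replicate numbers, but same-numbered samples did not deviate together (correlations of -0.057, 0.005, 0.055 and -0.32 across genes), so the numbers were not taken as pairs. With the replicate block 4 members were higher and 1 lower, as without it. In the list of E3 ligases, deubiquitinases and negative regulators 0 genes were then lower. There were 3 cofactors higher and 0 metabolic targets higher. Over all genes 2859 were higher and 2148 lower with the block.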
